A study of Drosophila melanogaster with 4 samples.

Results

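The regions described here are the mid-length autosomal regions of H3K36me1, that is, of histone H3 with a single methyl group on lysine 36. They were chosen by their called length and overlap, as the replicate 1 regions on 2L, 2R, 3L and 3R of at least 5000 and less than 10000 bp that overlap any region of replicate 2 by at least 1 bp. There are 483 of them among 4262 autosomal regions and 5434 regions in all of replicate 1. The mark was mapped by ChIP-seq, the sequencing of immunoprecipitated chromatin, in Drosophila melanogaster embryos of the wild-type strain Oregon-R (Oregon-R-modENCODE) aged 14 to 16 hours. It holds 2 immunoprecipitated samples and 2 samples of input chromatin, all of the same strain, genotype and stage. For each immunoprecipitated replicate the authors deposited the regions that exceeded its input, and they deposited a combined list for both, called the set list here. Whole embryos were crosslinked, so the regions combine all cell types present. Nothing in the labels ties the replicates to separate collections of embryos, and differences between them may be technical.

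Methyl groups on lysine 36 of histone H3 are placed in the bodies of transcribed genes. In Drosophila the trimethylated form is made mainly by Set2, which travels with elongating RNA polymerase II, while NSD and Ash1 make lower methylation states. In fly chromatin maps the monomethylated form has been found in open chromatin within introns of active genes. No gene was assigned to a region here, because the regions are placed on FlyBase release 5 and the gene table used here follows release 6.

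Length in replicate 1 and presence in replicate 2 chose these regions, so both are given as description. Of the 484 autosomal regions of this length, 483 overlapped replicate 2, against 68.3% of all autosomal regions of replicate 1. The exception lay on 2R from 9773946 to 9781418, with a score of 0.647 in replicate 1, and a set region of 8082 bp overlapped it. In the other classes of replicate 1, 38.2% under 2 kb, 82.7% from 2 to 5 kb and 100% at 10 kb or more overlapped replicate 2. The 483 regions had a median length of 6846 bp, and from the 10th to the 90th percentile they ran from 5308 to 9257 bp. They covered 3.42 Mb, or 18.4% of the autosomal length called in replicate 1, with 11.3% of its autosomal regions. Taken in the same way from replicate 2, the class held 436 regions with a median length of 6614 bp. Replicate 1 matched all 436, against 86.3% of all autosomal regions of replicate 2. The other classes of replicate 2 had 70.3% under 2 kb, 94.9% from 2 to 5 kb and 100% at 10 kb or more.

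The bounds do not fall at a break in the data. Just inside the lower bound lay regions of 5000 and 5005 bp on 2R, with scores of 0.808 and 0.724 in replicate 1 and 0.779 and 0.894 in replicate 2. Just outside it lay regions of 4994 bp on 2L and 4988 bp on 2R, with 0.699 and 1.24 in replicate 1 and 0.710 and 1.40 in replicate 2. Just inside the upper bound lay regions of 9927 and 9914 bp on 3L, with 0.978 and 1.95 in replicate 1 and 1.08 and 1.84 in replicate 2. Just outside it lay regions of 10006 bp on 2R and 10020 bp on 3R, with 0.953 and 1.33 in replicate 1 and 0.988 and 1.46 in replicate 2.

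In replicate 2 the same sequence was mostly enriched, but it was often cut into pieces or trimmed. Replicate 2 covered a median of 92.2% of each mid-length region, and it covered at least 90% of 273 of the 483 (56.5%). For all matched autosomal regions of replicate 1 these values were 89.4% and 49.0%, and at 10 kb or more 97.8% and 83.6%. The lowest covered share of a mid-length region was 20.0%. Less than 50% was covered in 20 of them (4.14%), against 7.79% of all matched regions and 0 of those of 10 kb or more. With the class taken in replicate 2, replicate 1 covered a median of 99.2% of each mid-length region. It covered at least 90% of 362 of them (83.0%). For all matched regions of replicate 2 these values were 98.6% and 72.4%. A single replicate 2 region overlapped 349 of the mid-length regions, 119 had 2 and 15 had 3. A region with more than 1 partner is called split here. The 134 split regions made 27.7% of the mid-length regions, against 12.9% of all matched autosomal regions. Shares of split regions were 1.85% under 2 kb, 6.87% from 2 to 5 kb and 37.0% at 10 kb or more. For the class taken in replicate 2, 17.0% were split in replicate 1, against 8.97% of all matched regions of replicate 2. The share grew with length in the other classes too, being 2.26% under 2 kb, 7.31% from 2 to 5 kb and 25.6% at 10 kb or more. A longer region has more length in which a break can be called, so these shares follow length in part by construction.

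The longest overlapping region of replicate 2 was itself of 5 to 10 kb for 278 mid-length regions (57.6%). For 150 it was of 2 to 5 kb, for 6 it was under 2 kb and for 49 it was of 10 kb or more. Partners of the same class were found for 67.4% of regions under 2 kb, 62.6% from 2 to 5 kb and 79.7% at 10 kb or more. Seen from replicate 2, the partner in replicate 1 was of the same class for 275 of 436 mid-length regions (63.1%), of 2 to 5 kb for 54 and of 10 kb or more for 106. The same-class shares of the other classes there were 44.4%, 66.7% and 93.1%. For mid-length regions, shorter partners were thus the more frequent change from replicate 1 to replicate 2, and longer ones from replicate 2 to replicate 1. The plot of lengths shows that most of the partners of 10 kb or more belonged to regions joined with a neighbour. One mid-length region on 3R from 12482515 to 12490593, 178 bp from its right neighbour, lay in a replicate 2 region of 100977 bp (chosen after its values were seen). Its score was 0.919 in replicate 1, and that of the long replicate 2 region was 1.33.

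**Figure D1:**
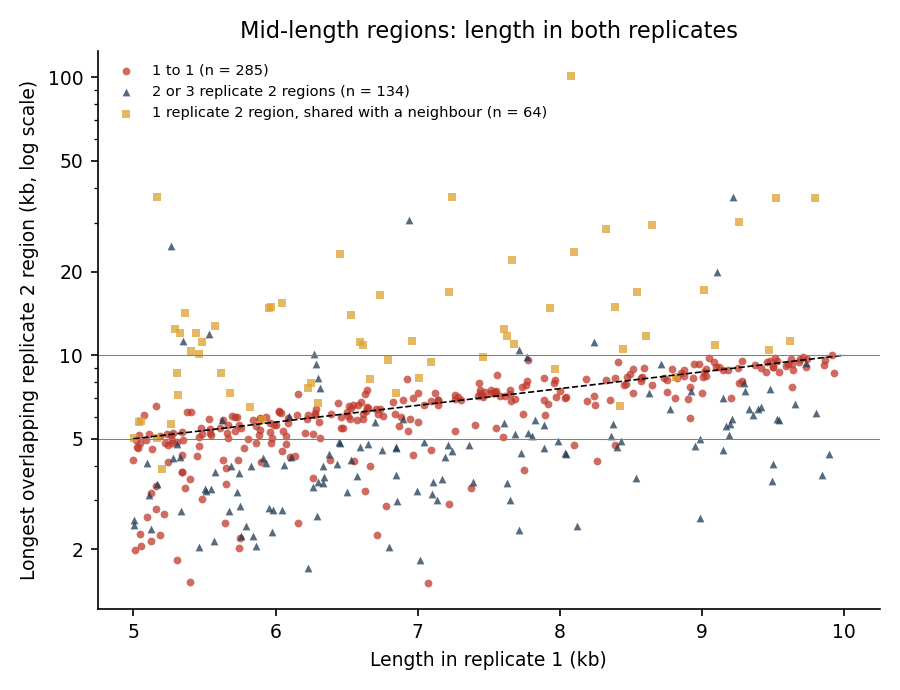
Length of each of the 483 mid-length regions in replicate 1 (x axis, kb) against the longest replicate 2 region that overlaps it (y axis, kb, log scale), with the dashed line at equal length and grey lines at 5 and 10 kb. Points of the 285 regions with 1 partner of their own lie mostly along or below the line, split regions mostly below it, and most of the 64 regions that share their only partner with a neighbour above it.

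Of the mid-length regions, 285 (59.0%) formed a 1 to 1 pair, in which each region overlaps the other and nothing else in the other list. The share was lower by value than under 2 kb (81.5%) and from 2 to 5 kb (79.9%), and higher than at 10 kb or more (49.4%). From replicate 2 these shares were 58.9% for the mid-length regions, 78.5% under 2 kb, 71.4% from 2 to 5 kb and 50.2% at 10 kb or more. No test of these differences was run, since the regions of a library are not replicates and a pair of replicates is too few for an exact test to reach 0.05.

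Edges of the 1 to 1 mid-length pairs differed by a median of 241.5 bp. Starts differed by a median of 240 bp and ends by 247 bp, close to each other by value. Both edges lay within 500 bp of each other in 149 of 285 pairs (52.3%), against 59% of all 1 to 1 autosomal pairs. The shares within 500 bp were 73.0% under 2 kb, 53.4% from 2 to 5 kb and 64.0% at 10 kb or more. With the class taken in replicate 2, 146 of 257 mid-length pairs (56.8%) had both edges within 500 bp, against 61.8%, 55.5% and 69.8% in those classes. The same 1 to 1 pairs enter both counts over all lengths, so the share of all pairs is 59% from either side. Among 1 to 1 pairs, mid-length regions therefore lay below the classes on either end of the length scale and near the 2 to 5 kb class in both replicates. Set against all matched regions of replicate 1, such close pairs numbered 149 of 483 mid-length and 112 of 354 at 10 kb or more. They numbered 608 of 1426 from 2 to 5 kb and 387 of 650 under 2 kb. From replicate 2 the counts were 146 of 436, 111 of 317, 526 of 1327 and 473 of 975 in that order. On this count mid-length regions were near those of 10 kb or more.

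The mid-length pairs had a long tail of large edge differences. An edge differed by more than 2000 bp in 33 of 285 pairs (11.6%), against 1.13% under 2 kb, 3.51% from 2 to 5 kb and 7.43% at 10 kb or more. The 90th percentile of the edge difference was 1453 bp for mid-length regions and 801 bp, 1134 bp and 946 bp for those classes. From replicate 2, 5.84% of the mid-length pairs had such an edge, against 3.27%, 4.75% and 4.40%. A short region cannot lose more than its own length, which limits the tail of the classes below 5 kb. Relative to length, the sum of start and end differences had a median of 8.81% in mid-length regions, 24.8% under 2 kb, 22.5% from 2 to 5 kb and 2.54% at 10 kb or more. On this scale the order followed length.

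**Figure D2:**
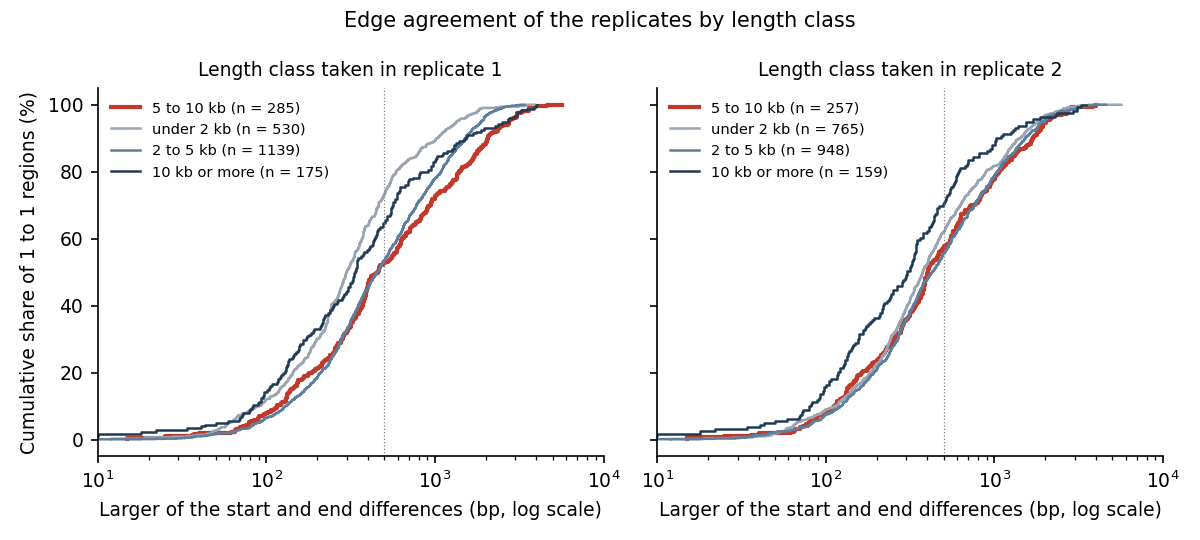
Cumulative share (%) of 1 to 1 regions by the larger of their start and end differences between replicates (bp, log scale), for 4 length classes taken in replicate 1 (left) or replicate 2 (right), with a dotted line at 500 bp. At 500 bp the mid-length line stands at 52.3% (left) and 56.8% (right), below the lines of the classes under 2 kb and of 10 kb or more.

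Replicate 2 placed its edges inside those of replicate 1. Of the 570 edges of the 285 mid-length pairs, 410 (71.9%) lay inside the replicate 1 region, and in 145 pairs (50.9%) both did. Both lay outside it in 19 pairs (6.67%). The median length in replicate 2 was 0.939 times that in replicate 1. Choosing by length in replicate 1 favours regions that are long there, so the choice itself pushes these values in that direction. With the class taken in replicate 2, where the choice pushes the other way, replicate 1 regions had a median length 1.04 times that in replicate 2, and 36.2% of replicate 1 edges lay inside. Replicate 1 was thus the wider under either choice. Over all 2129 autosomal pairs 63.7% of replicate 2 edges lay inside. The share was 48.8% under 2 kb, 68.3% from 2 to 5 kb and 65.7% at 10 kb or more, so the shortest regions did not show this direction with the class taken in replicate 1. Whether a start was shifted said little of the end, with a Spearman correlation of -0.041 between both inward shifts across the 285 pairs.

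The 4 closest pairs, by the sum of edge differences, came from 3 arms. A region on 3L from 18263458 to 18269345 differed by 15 bp at its start and 5 bp at its end, with scores of 0.741 in replicate 1 and 0.751 in replicate 2. Another on 3L, from 9455661 to 9464755, differed by 25 bp at either edge and scored 1.06 and 1.11. On 2R, the region from 18065739 to 18070757 differed by 18 and 37 bp and scored 0.861 and 0.756. On 2L, the region from 19356328 to 19362845 differed by 36 and 26 bp and scored 1.39 and 1.39. These scores span from below to above the median of the mid-length regions, so close edges also occurred at ordinary scores.

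The 1 to 1 pairs with the largest change in length were each trimmed in replicate 2. On 3R, a region of 7076 bp from 18960864 to 18967939 had a replicate 2 partner of 1508 bp, and the loss of 5662 bp was at its end. On 2R, a region of 6711 bp from 6119159 to 6125869 had a partner of 2254 bp, with 4595 bp lost at its start. On 3L, a region of 7219 bp from 56923 to 64141 had a partner of 2921 bp, with 3870 bp lost at its end. A region of 8260 bp on 3R from 9649181 to 9657440 had a partner of 4168 bp, with 3017 bp lost at its start and 1075 bp at its end. Their replicate 1 scores were 0.748, 0.828, 0.557 and 0.769, all below the mid-length median of 0.858. Replicate 2 gave the remaining pieces scores of 0.829, 0.704, 0.720 and 0.844.

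Edges agreed more closely where the score was higher. The 95 of the 285 pairs with the lowest replicate 1 scores, from 0.548 to 0.816, had a median edge difference of 467.5 bp. The middle 95 had 252.5 bp, and the 95 with the highest scores, from 1.02 to 2.23, had 129.5 bp. Both edges lay within 500 bp in 25, 50 and 74 of these pairs. The Spearman correlation of score with the sum of edge differences was -0.54 across the 285 mid-length pairs. It was -0.52 in the 153 pairs of 5 to 7 kb and -0.54 in the 132 of 7 to 10 kb. With the score of replicate 2 in place of that of replicate 1 it was -0.55.

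With the class taken in replicate 2 the order was the same. The median edge difference was 340.5 bp, 226.5 bp and 143.5 bp from the lowest to the highest scores, and the correlation was -0.39 across 257 pairs. Other lengths gave -0.38 at 10 kb or more, -0.20 from 2 to 5 kb and 0.31 under 2 kb, the last with the opposite sign. From replicate 2 these were -0.23, -0.21 and 0.21. The points are regions of a single pair of libraries, share its depth, and take their score and edges from the same signal. The sources used here do not say how the authors formed the score, and no p-value is attached.

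**Figure D3:**
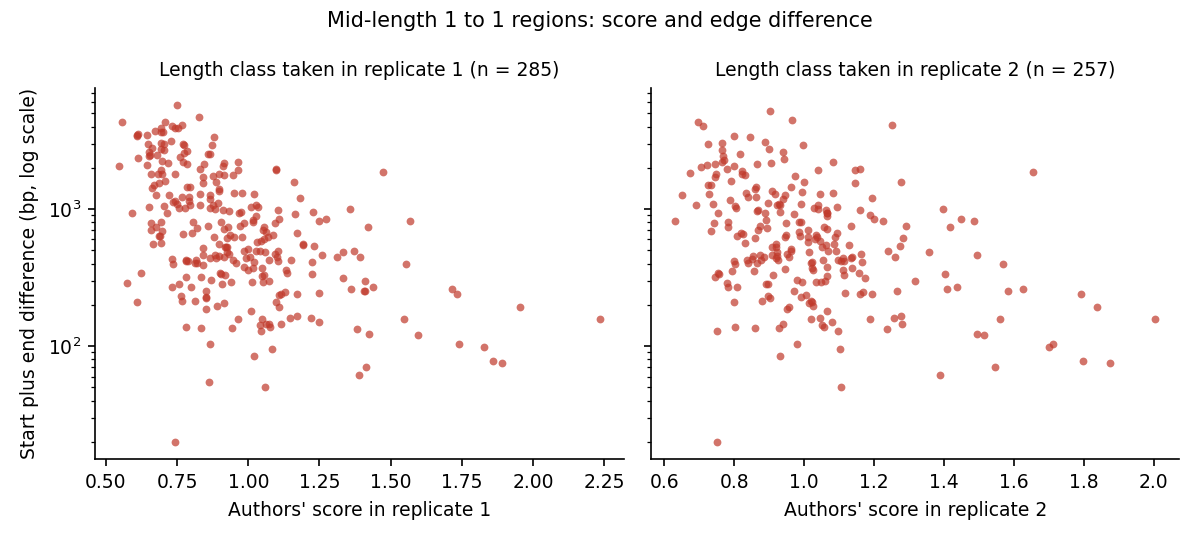
Each point is a mid-length region with a 1 to 1 partner, with its score in the list that set the class (x axis) against the sum of its start and end differences between replicates (y axis, bp, log scale), for classes taken in replicate 1 (left, n = 285) and replicate 2 (right, n = 257). Points above a score of 1.5 mostly lie in the lower part of each plot.

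Gaps that only one replicate called had medians under 500 bp. Within the split mid-length regions, replicate 2 left 149 gaps with a median of 491 bp and a longest of 2507 bp. Such a gap cannot exceed the region that holds it, which limits its length by construction. Medians of these gaps in the other classes were 170 bp under 2 kb, 343 bp from 2 to 5 kb and 335.5 bp at 10 kb or more. Of the 966 sides of mid-length regions with a neighbour, replicate 2 joined the region to that neighbour at 120. The gaps at these 120 sides had a median of 344 bp and a longest of 3718 bp. A gap between successive mid-length regions counts at a side of each, so some gaps enter more than once. Joining depended on the gap in replicate 1. It took place at 78 of 201 sides with a gap under 500 bp (38.8%), at 28 of 128 from 500 to 1000 bp (21.9%) and at 11 of 139 from 1000 to 2000 bp (7.91%). It took place at 3 of 188 sides from 2000 to 5000 bp and at 0 of 310 with a longer gap. For the sides of the other classes with a gap under 500 bp, the shares were 49.6% for regions under 2 kb, 46.2% for regions of 2 to 5 kb and 44.6% for regions of 10 kb or more. Mid-length regions had the lowest of these shares by value. From replicate 2 to replicate 1, 61.4% of the mid-length sides with such a gap were joined, against 68.9%, 65.2% and 65.6%.

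At most 3 replicate 2 regions overlapped a mid-length region, and the 4 longest of the 15 such cases are given here. On 3R, the region of 9843 bp from 16386277 to 16396119 corresponded to pieces of 3695, 1314 and 1428 bp, with scores of 0.882, 0.580 and 0.641. On 2R, the region of 9493 bp from 13359139 to 13368631 corresponded to pieces of 1829, 3529 and 1904 bp, with scores of 0.583, 0.721 and 0.644. In both, the longest piece had the highest score. On 2L, the region of 9657 bp from 19939522 to 19949178 overlapped pieces of 4574, 3351 and 6669 bp, the last of which ran 6268 bp beyond its end. On 3L, the region of 9328 bp from 15646842 to 15656169 overlapped pieces of 2036, 5065 and 6399 bp, the last of which ran 5987 bp beyond its end. In the last 2 cases the replicates thus cut the same stretch at different places. The 2L pieces scored 0.690, 1.02 and 0.684, so there the longest piece had the lowest score. The 3L pieces scored 0.658, 0.717 and 0.880, with the highest score at the longest piece. Replicate 1 scores of the 4 regions were 0.776, 0.790, 0.756 and 0.691 in the order given.

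Scores of mid-length regions stood between those of the shorter and the longer regions. In replicate 1 the lowest was 0.519, the median 0.858 and the highest 2.23. The medians of the other matched classes were 0.492 under 2 kb, 0.647 from 2 to 5 kb and 1.09 at 10 kb or more. In replicate 2, with the class taken there, the mid-length regions had a lowest score of 0.631, a median of 0.933 and a highest of 2.00. The medians of the other classes in replicate 2 were 0.580, 0.732 and 1.19. In the set list, the regions that held them had median scores of 0.812 for mid-length regions and 0.453, 0.603 and 1.03 for the others. The order of the 4 classes was the same in the 3 lists. Scores are the authors' own value for each region, and their levels are compared only within a list.

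Few mid-length regions had low scores. Of the 483, 348 (72.0%) lay in the highest-scoring 25% of the autosomal regions of replicate 1, 126 in the next 25%, 9 in the one after and 0 in the lowest. Scores also overlapped with those of the broad regions. The median of the regions of 10 kb or more was exceeded by 78 mid-length regions (16.1%). The median of all autosomal regions of 2 to 5 kb, matched or not, was 0.637 and was not reached by 27 (5.59%). In replicate 2, where that median was 0.730, the numbers were 50 of 436 (11.5%) and 24 (5.50%). Length and score come from the same calls, so these counts describe the list and are not a test.

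Within the class, score increased with length in steps of 1 kb. The median replicate 1 score was 0.790 from 5 to 6 kb, 0.805 from 6 to 7 kb, 0.860 from 7 to 8 kb, 0.897 from 8 to 9 kb and 0.968 from 9 to 10 kb. The scores of the replicate 2 partners of the same regions had medians of 0.818, 0.869, 0.935, 0.964 and 1.06. Medians of edge difference did not fall at every step. They were 293.5, 298, 220, 260 and 141.5 bp in the same order, the last from 41 pairs. Regions of 10 to 11 kb had 145 bp and those of 11 to 12 kb 214.5 bp. With the class taken in replicate 2 the medians from 5 to 10 kb were 256.5, 228.5, 192, 232 and 139 bp. The Spearman correlation of length with score was 0.31 among the 483 regions. It was 0.84 over all 2913 matched autosomal regions, which span a far wider range of length.

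Scores of mid-length pairs ranked alike in both replicates. Over the 285 pairs the Spearman correlation was 0.88, against 0.37 under 2 kb, 0.52 from 2 to 5 kb and 0.96 at 10 kb or more. Taken in replicate 2 it was 0.88, against 0.25, 0.53 and 0.96. The range of score also widened with length, from an interquartile range of 0.442 to 0.532 under 2 kb to one of 0.735 to 1.02 in mid-length regions of replicate 1. A narrow range lowers a rank correlation, so the classes are set side by side as values only.

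By mean rank of score over both replicates, the 6 highest mid-length regions lay on 3L, 2R and 3R. First was a region on 3L of 7440 bp, from 7972038 to 7979477, with scores of 2.23 in replicate 1 and 2.00 in replicate 2. It lay 299 bp from a region of 10 kb or more, and the set list joined both into 41250 bp. Second was a region on 2R of 6152 bp, from 6422224 to 6428375, with 1.89 and 1.87. Next came a region on 3L of 9914 bp, from 292071 to 301984, with 1.95 and 1.84, and it lay 119.5 kb from any region of 10 kb or more.

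Ranks 4 to 6 were on 3R from 12068103 to 12075578 with 1.86 and 1.80, on 3L from 606562 to 615682 with 1.74 and 1.71, and on 3R from 2926508 to 2933948 with 1.83 and 1.70. All 6 were 1 to 1 pairs, and none of their edges differed by more than 144 bp. In 4 of the 6 a region of 10 kb or more lay within 1480 bp. The other two were 119.5 kb and 53.4 kb away from one.

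The 3 with the lowest mean rank were split in replicate 2. They lay on 3R from 8197278 to 8202443, with a score of 0.563 in replicate 1 and 0.589 for the longest piece in replicate 2, on 3L from 20375989 to 20382783 with 0.563 and 0.644, and on 3R from 26582732 to 26588481 with 0.596 and 0.656. Replicate 2 covered 89.2%, 72.3% and 87.0% of them.

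Mid-length regions seldom stood alone. The nearest neighbour in replicate 1 lay a median of 748 bp away, against 1998 bp under 2 kb, 1466 bp from 2 to 5 kb and 663 bp at 10 kb or more. It was closer than 1000 bp for 271 of 483 (56.1%), against 42.7% of all matched autosomal regions. In the other classes this share was 32.2% under 2 kb, 38.6% from 2 to 5 kb and 59.9% at 10 kb or more. In replicate 2, with the class taken there, the median gap was 824 bp and 242 of 436 (55.5%) had a neighbour closer than 1000 bp, against 39.1% of all matched regions. The other shares in replicate 2 were 29.0%, 37.1% and 55.8%. In both replicates the spacing of mid-length regions was closer in value to that of the broad regions than to that of the shorter ones.

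Close neighbours were mostly on one side. In replicate 1, 58 of the 483 mid-length regions (12.01%) had a neighbour closer than 1000 bp on both sides. The share was 7.62% for all matched autosomal regions, 3.85% under 2 kb, 6.17% from 2 to 5 kb and 14.4% at 10 kb or more. With the class taken in replicate 2 it was 11.5%, against 7.17% of all matched regions there. Having close neighbours on both sides was thus more frequent in mid-length regions than in all matched regions. For mid-length regions of replicate 1 the median of the larger of the gaps was 5702 bp. The nearest neighbour was of 2 to 5 kb in 182 cases (37.7%), under 2 kb in 130 (26.9%), also mid-length in 91 (18.8%) and of 10 kb or more in 80 (16.6%). For all matched regions of replicate 1 these shares were 40.9%, 33.2%, 14.5% and 11.4%. In replicate 2 the nearest neighbour of a mid-length region was of 10 kb or more in 56 of 436 cases (12.8%), against 10.4% of all matched regions.

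No neighbour lay within 10 kb of 27 mid-length regions (5.59%) in replicate 1, and of 32 of 436 (7.34%) in replicate 2. All matched autosomal regions gave 8.38% and 13.7%, and those of 10 kb or more 6.78% and 7.89%. The most isolated mid-length region lay on 3L from 5342484 to 5348505, with 161.8 kb to its nearest neighbour. It scored 0.852 in replicate 1 and 0.901 in replicate 2. Its edges differed by 90 and 133 bp. The next was on 3L from 12380769 to 12386279, 110.3 kb from any other, followed by one on 2R from 10315053 to 10321701, 47.2 kb from any other. These were both split into 2 pieces in replicate 2. Scores of all 3 lay below the replicate 1 mid-length median, at 0.852, 0.761 and 0.773.

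Runs of successive mid-length regions were short. Of the 483, 351 had no other mid-length region directly before or after them in the list of replicate 1, and 43 runs held 2. The longest run held 6, on 2R between 6371591 and 6428375. The lengths of its regions were 8954, 5826, 7172, 9258, 8915 and 6152 bp, and the first 3 were separated by 13 and 132 bp. Replicate 1 scores in the run were 1.04, 0.789, 0.718, 0.950, 0.864 and 1.89. Scores of the longest replicate 2 partners were 1.03, 0.718, 0.691, 0.834, 0.944 and 1.87. The first 3 were split in replicate 2 and the other 3 were 1 to 1 pairs. The last of them is the second-ranked region by score named above.

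Mid-length regions lay nearer to regions of 10 kb or more than shorter regions did, by median distance. The median distance was 40.5 kb in replicate 1, against 90.2 kb under 2 kb and 77.3 kb from 2 to 5 kb. Regions of 10 kb or more lay a median of 33.2 kb from the next of their kind. A region of 10 kb or more lay within 5 kb of 119 mid-length regions (24.6%), against 14.9% of all matched autosomal regions. This share was 7.54% under 2 kb, 11.7% from 2 to 5 kb and 27.7% at 10 kb or more. In replicate 2 the median distance was 61.5 kb, against 105.3 kb, 89.3 kb and 19.7 kb. There 82 of 436 mid-length regions (18.8%) lay within 5 kb of a region of 10 kb or more, against 13.1% of all matched regions, and the other classes had 4.92%, 11.9% and 35.6%. The order from the shortest class to the broad one was the same in both replicates.

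**Figure D4:**
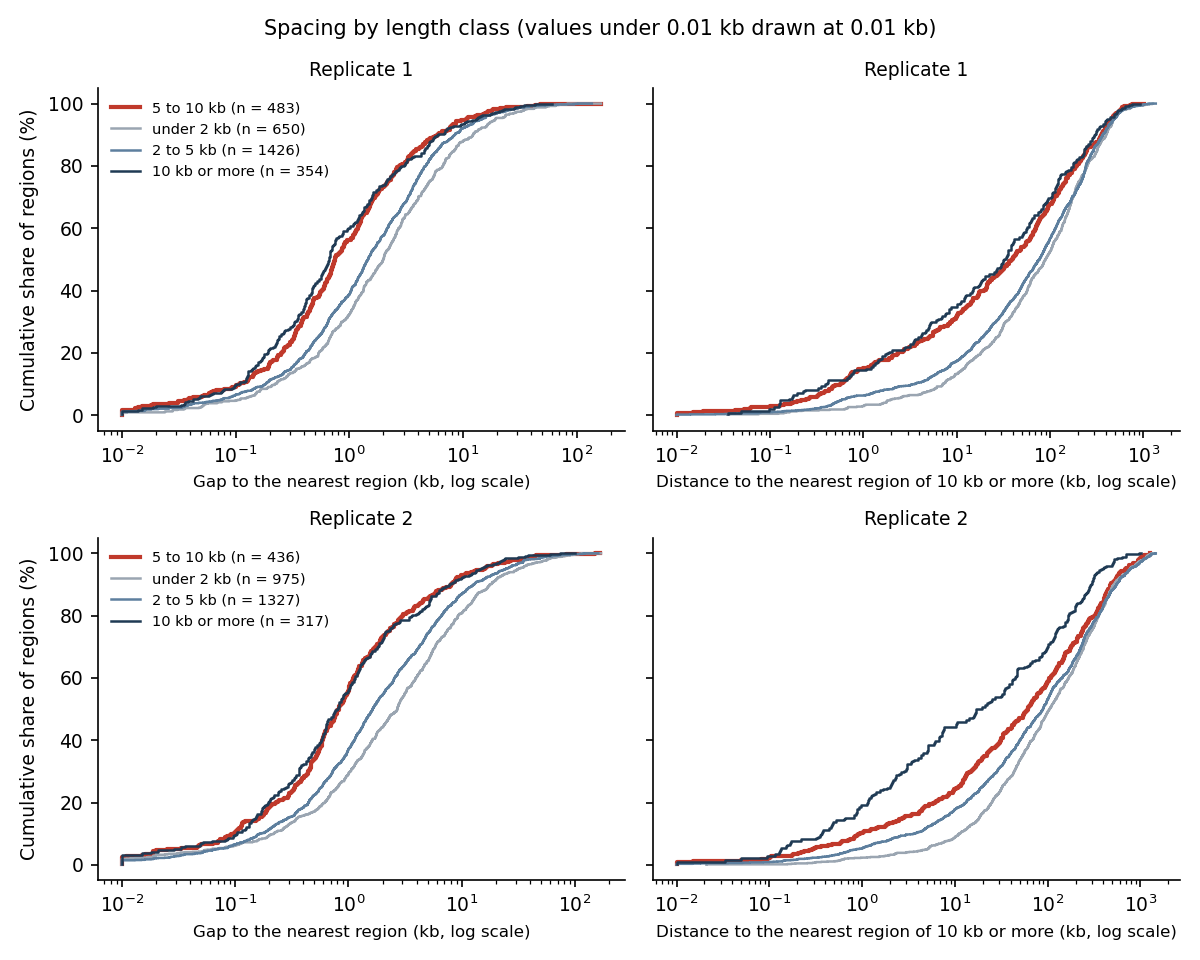
Cumulative share (%) of matched autosomal regions by the gap to the nearest region (left, kb, log scale) and by the distance to the nearest other region of 10 kb or more (right, kb, log scale), for 4 length classes in replicate 1 (top) and replicate 2 (bottom). In the left plots the mid-length line runs with that of regions of 10 kb or more, and in the lower right plot it lies between that line and the lines of the shorter classes.

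The distances covered a wide range. In replicate 1, 157 mid-length regions (32.5%) lay more than 100 kb from any region of 10 kb or more, and in replicate 2 the count was 181 of 436 (41.5%). For all matched autosomal regions these shares were 41.0% and 45.8%. The farthest mid-length region lay on 3R from 8523281 to 8529896, at 1011.6 kb, and scored 1.06 in replicate 1 and 0.923 in replicate 2. The next were on 3R from 8275105 to 8281126, at 829.5 kb with scores of 0.908 and 0.897, and from 8197278 to 8202443, at 751.6 kb with 0.563 and 0.589. These 3 lie in the same part of 3R, where replicate 1 held no broad region.

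Near and far mid-length regions had similar median scores, while replicate 2 drew them differently. Within 5 kb of a broad region the median replicate 1 score was 0.877, and more than 100 kb away it was 0.894. Between these it was lower, at 0.794 from 5 to 50 kb and 0.843 from 50 to 100 kb. For the class taken in replicate 2, its own scores had medians of 0.949 near and 0.935 far, with 0.915 and 0.929 between. The longest partner in replicate 2 was of 10 kb or more for 30 of the 119 near regions (25.2%) and for 1 of the 157 far ones (0.637%). The 1 to 1 share was 47.9% near and 69.4% far. With the class taken in replicate 2, partners of 10 kb or more were found for 35 of 82 near regions (42.7%) and 33 of 181 far ones (18.2%), and the 1 to 1 shares were 46.3% and 61.3%. Edges of the 1 to 1 pairs differed by a median of 234 bp near and 203 bp far in replicate 1, and 188 and 190.5 bp in replicate 2. Median gaps to the nearest region were 422 bp near and 1262 bp far in replicate 1, so the near regions also had closer neighbours, and the part this played was not tested.

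The 4 arms carried similar densities. There were 4.65 mid-length regions per Mb on 2L (107), 4.87 on 2R (103), 5.30 on 3L (130) and 5.12 on 3R (143). In replicate 2 the densities were 4.43, 4.40, 4.52 and 4.66 per Mb. They covered between 3.22% of 2L and 3.72% of 3L in replicate 1, and between 3.01% of 2R and 3.20% of 3R in replicate 2. Median scores in replicate 1 ran from 0.796 on 2L to 0.867 on 3R, and those in replicate 2 from 0.917 on 2L to 0.960 on 3R.

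Edge agreement varied more among arms by value than density did. Both edges lay within 500 bp in 38.7% of the 1 to 1 pairs on 2L, 66.1% on 2R, 49.4% on 3L and 55.8% on 3R. Each share rests on only part of the 285 pairs, and the differences among arms were not tested. Taken in replicate 2 the shares were 42.6%, 65.3%, 57.5% and 60.5%. The median edge difference was 340.5 bp on 2L from either side and 169.5 bp on 2R (161.5 bp with the class taken in replicate 2). Arm 2L also had the lowest median score in both replicates, and the part of score in this was not tested. Many of the pairs are in both classes, so the counts from each replicate are not independent of each other.

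Along the arms, mid-length regions were most frequent in the second of 4 equal sections counted from the centromere. The sections held 91, 153, 130 and 109 regions in replicate 1, or 3.77, 6.33, 5.38 and 4.51 per Mb. In replicate 2 they held 81, 144, 113 and 98. All autosomal regions of replicate 1 varied less, with 41.7, 47.9, 44.8 and 42.0 per Mb. Mid-length regions therefore made up 9.03% of the autosomal regions in the first section, 13.2% in the second, 12.03% in the next and 10.7% in the last. In replicate 2 these shares were 9.95%, 14.8%, 12.3% and 11.8%. Regions of 10 kb or more had 3.44, 3.81, 3.97 and 3.44 per Mb in replicate 1.

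The arms differed in this. On 3L the section nearest the centromere held only 10 mid-length regions in replicate 1 and 13 in replicate 2, and the next held 44 and 47. On 2L the first section held 33 and 27, and the next 26 and 27, so 2L showed no such step. On 2R the numbers were 22 and 16 in the first and 35 and 33 in the second, and on 3R they were 26 and 25 and then 48 and 37. The highest count on 3R in replicate 2 was 39, in the third section. On 2L the highest counts were 33 in the first section in replicate 1 and 29 in the third in replicate 2. The mappable share of the sequence near the centromeres was not analysed here.

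**Figure D5:**
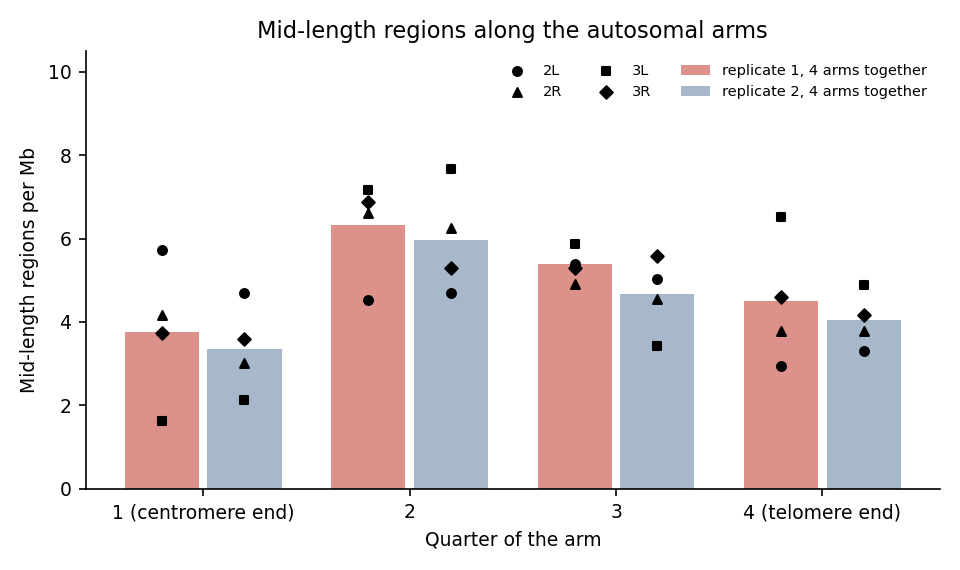
Mid-length regions per Mb (y axis) in 4 equal sections of each autosomal arm from the centromere to the telomere (x axis), with bars for the 4 arms together in replicate 1 (left bar) and replicate 2 (right bar) and points for single arms. The second section has the highest bar in both replicates, at 6.33 and 5.96 per Mb, and the lowest point is 3L in the section nearest the centromere. The points of 2L in both replicates and of 3R in replicate 2 are highest in other sections.

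In 95 full windows of 1 Mb the number of mid-length regions ran from 0 to 13 in replicate 1, with a median of 5. The window on 3L from 15000001 to 16000000 held 13 in each replicate (chosen after its values were seen). No mid-length region of replicate 1 lay in 5 windows, and none of replicate 2 in 2. Counts in both replicates had a Spearman correlation of 0.81 across windows. The correlation with the count of all regions in replicate 1 was 0.61, and with that of regions of 10 kb or more it was 0.32. The windows belong to a single pair of libraries, and these are descriptions without a p-value.

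The set list kept matched regions of every length class, and it widened or joined many of the mid-length ones. It held part of each of the 483 and of every other matched region of replicate 1. It covered at least 90% of 482 mid-length regions (99.8%), against 99.5% of all 2913 matched autosomal regions. The set region of a mid-length region had a median of 1.18 times its length in replicate 1. For 292 (60.5%) it was again of 5 to 10 kb, and for 191 (39.5%) it was of 10 kb or more. In 200 cases (41.4%) it also held another region of replicate 1, with up to 8 in a single set region. The share was 28.2% under 2 kb, 27.9% from 2 to 5 kb and 45.8% at 10 kb or more. For the class taken in replicate 2, 225 of 436 (51.6%) shared their set region. The set list was made from the same samples, so it is not a separate measurement.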

How the data were processed

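H3K36me1 was measured in 2 immunoprecipitated replicates, each with an input sample, in embryos of 14 to 16 hours. The submitters' processing notes name Bowtie 0.12.7 as a tool. Per the file headers, coordinates refer to FlyBase release 5, and they are counted from 1 with both ends included. The deposited values are 1 score per region, given by the authors. Neither the region caller and its threshold, nor how the replicates were combined, nor the scale of the score is stated in the sources used here. Set against the most frequent score of its list, scores in replicate 1 (51.0%), replicate 2 (82.7%) and the set list (33.5%) were logarithms to base 2 of a ratio with a denominator of at most 1000 (relative tolerance 1e-10), against 0.294%, 0.553% and 0.273% with base e. Base 2 thus described more scores than base e in each list, but not all, and the zero point of each list is unknown, so levels are compared only within a list. Read numbers are not part of these lists, which leaves the depth behind a region unknown.

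Overlaps, edge differences, gaps and distances were computed from the lists on 2L, 2R, 3L and 3R, and the code was tested on simulated lists with known shifts, splits and losses. The partner of a region with several overlaps is the longest of them. Matched regions are those that overlap the other replicate by at least 1 bp. Arm sections and windows take a region by its midpoint. No test was run, since regions are not replicates and a pair of replicates is too few for an exact test to reach 0.05. The members, classes and measures were chosen with earlier results of these data known. Named regions are the 6 highest and 3 lowest by mean rank of score, the 4 closest and the 4 most changed 1 to 1 pairs, the 4 longest of those with most pieces, the 3 most isolated, the 3 farthest from a region of 10 kb or more, the longest run and those nearest the bounds. The alternatives were the higher-scoring 50% of each list, a reciprocal overlap of 50%, merging below 1000 bp, each replicate alone, the class taken in replicate 2, other length bounds, the set list as partner, other edge tolerances and broad regions from 20 kb. Genes and sequences were not assigned, since the gene table used here follows release 6. Python 3.11.15, NumPy 2.4.6, pandas 2.3.3, SciPy 1.17.1 and matplotlib 3.10.9 were used.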

Additional observations from a re-analysis of the deposited data

How the results depend on the processing

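Of 50 alternative values for 7 results, 18 stayed within 1 SD, taken here as the SD of the values from both replicates (for the number of regions, a factor of 1.5), and 32 moved beyond it. The spread rests on 2 values, so a value from replicate 2 always lies beyond 1 SD of that from replicate 1, and 9 of the 32 moved for that reason alone. The number of regions stayed within the factor, from 386 with a reciprocal overlap of 50% to 600 with bounds of 4 to 8 kb. The share of 1 to 1 pairs with both edges within 500 bp was 52.3%. Keeping the higher-scoring 50% of each list gave 43.9%. It was 40.4% with the reciprocal overlap, 34.5% with regions less than 1000 bp apart merged, 56.8% with the class taken in replicate 2, 46.3% with the shorter bounds and 71.4% with the set list as partner. Tolerances of 200 and 1000 bp gave 20.7% and 71.9% by construction. The median edge difference of 241.5 bp became 289.5, 300, 353.5, 219, 279.5 and 97.5 bp under those 6 settings in the same order. Partners of the same class made up 57.6%, and 61.9%, 70.7%, 47.9%, 63.1% and 53.0% under the first 5. The median score of 0.858 became 0.773 with merging, 0.783 with the shorter bounds and 0.933 in replicate 2, whose scores may have another zero point. The median gap of 748 bp became 1303 bp with the higher-scoring 50%, 887.5 bp with the reciprocal overlap, 2706 bp with merging, 824 bp in replicate 2 and 977 bp with the shorter bounds; removing or merging regions widens gaps by construction. The median distance to a broad region was 40.5 kb, 61.5 kb in replicate 2 and 303.8 kb with broad regions from 20 kb, which are fewer. For the other changes the cause was not tested. With each replicate alone, the number of regions ran from 436 to 484, the median score from 0.858 to 0.933, the median gap from 747.5 to 824 bp and the median distance from 40.5 to 61.5 kb. No paired analysis was possible because values exist only for the immunoprecipitated pair of samples and the inputs enter them as background. Whether depth limits the edges was not tested, as read numbers were not used here.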
